A study of Strongylocentrotus purpuratus and Patiria miniata with 4 samples.

Results

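Broad isolated Tbrain (Tbr) peaks of the sea star Patiria miniata are stretches of the genome, each 130 bp or wider, where chromatin precipitated with an antibody against the animal's own Tbr protein was enriched over input, and which stand more than 1000 bp from any other Tbr summit or alone on their scaffold. A scaffold is 1 of the separate pieces of the draft genome assembly, and a summit is the base of a peak with the most precipitated DNA. Of 13977 sea star peaks, 1328 were broad and isolated, or 9.50% (exact binomial 95% interval 9.02 to 10.0%). The peaks they are set against are the 10158 isolated ones narrower than 130 bp. The 2 lists of the series, sea star and sea urchin, hold 17126 peaks. The members were picked by width and spacing, which come from the same ChIP library as their fragments, fold enrichment and significance, so all values below are descriptions and carry no test.

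The sea star samples are 1 library of DNA precipitated with a custom antibody against P. miniata Tbr (anti-PmTbr) and 1 input library, which is the same kind of chromatin sequenced without an antibody. Both came from pooled whole embryos at the hatched blastula stage, about 30 hours after fertilization, grown at 15 °C. No genotype, allele or treatment is given for these embryos. Embryos were fixed in 1% formaldehyde for 10 minutes, chromatin was cut with micrococcal nuclease, and 50 µg of it was precipitated with 10 µg of antibody. Chromatin from 2 to 3 separately fertilized cultures was pooled first, so the species has 1 biological replicate, without any measure of the spread between replicates. The purple sea urchin, Strongylocentrotus purpuratus, has the same pair of libraries at mesenchyme blastula, about 24 hours.

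Tbr is a T-box transcription factor, a protein that binds short DNA sequences through its T-box domain and regulates nearby genes. In sea urchin embryos it is known for its part in the skeleton-forming mesenchyme. Sea star larvae build no such skeleton, and there Tbr works more broadly, in the network that sets up mesoderm and endoderm. Micrococcal nuclease cuts the DNA between nucleosomes and spares DNA held by nucleosomes and by other bound proteins, so the fragments that are precipitated follow those cuts. Which genes lie near these peaks was not analysed here, since no annotation or sequence of these scaffolds was used, and their genome build was not given in the sources used here.

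Broad isolated peaks were modest in width. Their median was 152 bp (95% order-statistic interval 150 to 154 over peaks), the quartiles were 138 and 174 bp, and the widest was 324 bp. Narrower isolated peaks had a median of 92 bp, with quartiles of 86 and 103 bp, and none was shorter than 84 bp. That smallest width was taken as the fragment length. The widths formed 1 continuous series with no gap at 130 bp. Just inside the limit, 41 isolated peaks were 130 bp wide and 48 were 131 bp wide, and just outside it 49 were 129 bp wide and 41 were 128 bp wide. The 41 peaks of 130 bp had a median of 33 ChIP fragments at the summit and a fold enrichment of 7.28, and the 49 peaks of 129 bp had 31 fragments and 6.76. The limit therefore divides a gradual decline in number. Broad isolated peaks covered 213.7 kb, which is 14.7% of the length of all sea star peaks.

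**Figure D1:**
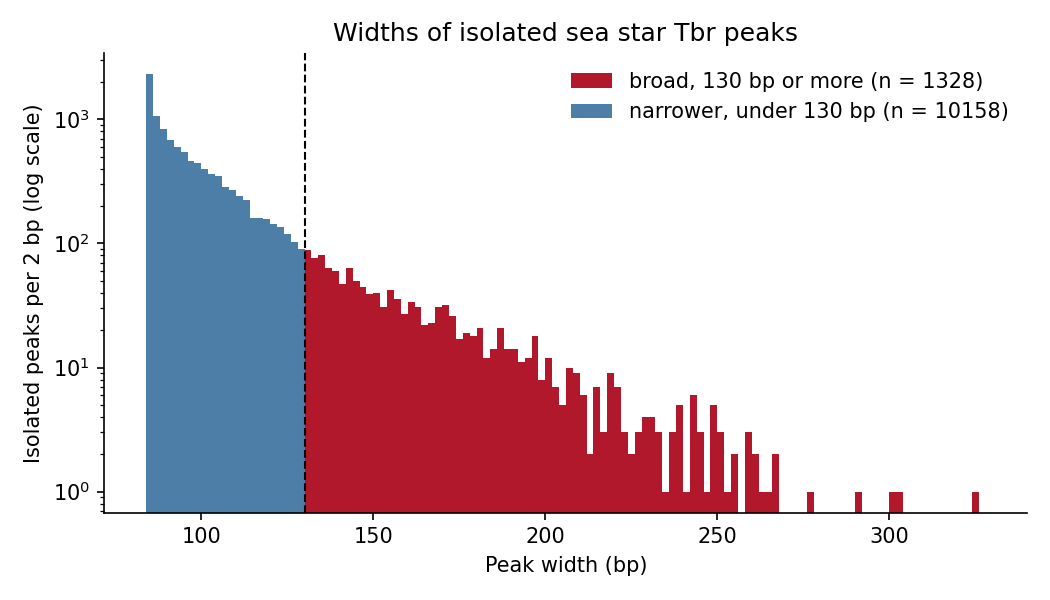
Number of isolated sea star Tbr peaks (y axis, logarithmic, per 2 bp of width) by peak width in bp (x axis), for broad peaks in red and narrower peaks in blue, with the 130 bp limit dashed. The counts decline over the range from 84 bp to 324 bp, though not at every step, and 1328 of 11486 isolated peaks lie at or right of the limit.

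At their summits, broad isolated peaks held more precipitated DNA and also more input than narrower ones, and their median fold enrichments over the full sets were within 0.01 of each other. The median broad peak had 31 ChIP fragments at its summit (quartiles 25 and 39), and the median narrower peak had 25 (quartiles 21 and 31). These fragments are whole numbers computed from the deposited fold enrichment and p-value of each peak. In chromatin of whole embryos, binding in fewer cells and less binding per cell cannot be told apart. The scaled input, which is the input expected at that place at the depth of the ChIP library, had a median of 4.11 fragments in broad peaks and 3.08 in narrower ones. As multiples of the genome-wide mean of 1.77 fragments, these medians are 2.32 and 1.74. Both quantities stood higher in broad peaks, while their ratio was level over the full sets. The deposited fold enrichment had a median of 6.22 (6.12 to 6.42) in broad peaks and of 6.22 (6.16 to 6.26) in narrower ones. Its quartiles were 5.002 and 7.66 in broad peaks and 5.14 and 7.39 in narrower ones, so the broad set spread a little further at both ends. With the width limit at 120 bp the medians were 6.45 (6.34 to 6.56) in broad peaks and 6.16 in narrower ones, and among peaks with a scaled input of at most 2 times the mean they were 7.58 (7.53 to 7.83) and 7.10.

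**Figure D2:**
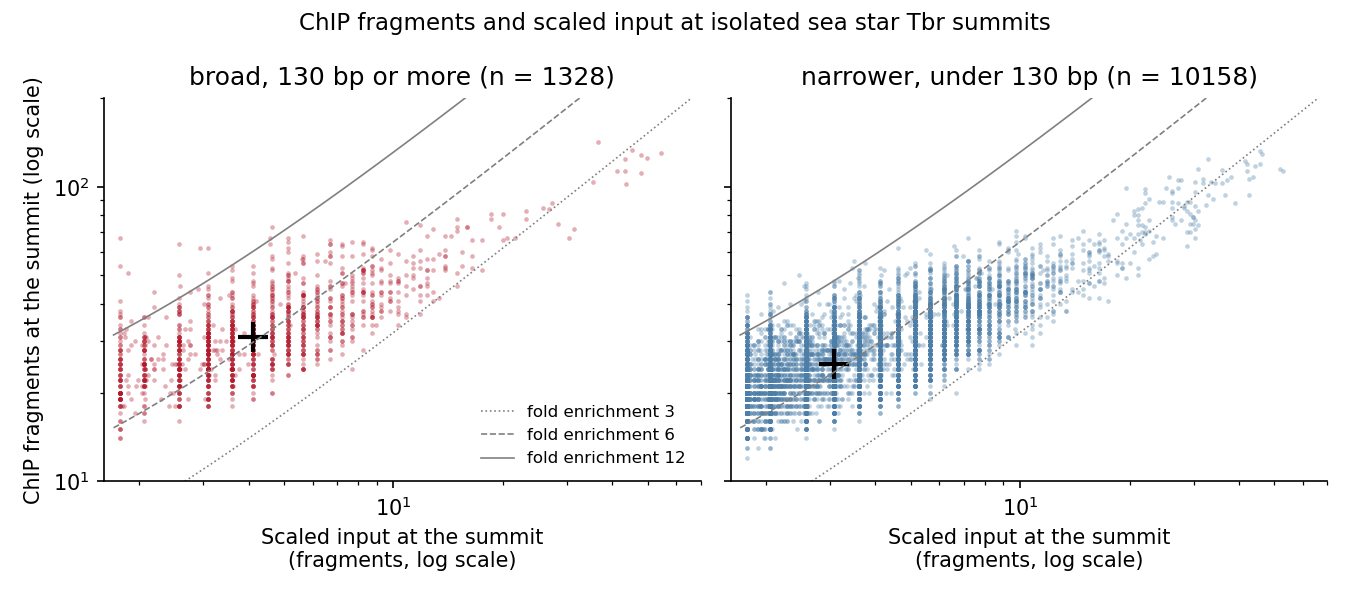
ChIP fragments at the summit (y axis, logarithmic) against scaled input in fragments (x axis, logarithmic), 1 point per isolated sea star peak, broad peaks in the left panel and narrower peaks in the right, with a cross at the medians and lines of equal fold enrichment. The cross lies at 31 fragments over 4.11 in broad peaks and at 25 over 3.08 in narrower peaks, on nearly the same fold enrichment line.

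Broad peaks also ranked higher by significance. The median −log10 q was 13.8 in broad isolated peaks and 11.6 in narrower isolated ones. A −log10 q of 20 or more was reached by 232 of 1328 broad isolated peaks (17.5%) and by 703 of 10158 narrower isolated peaks (6.92%), while 8.97% of all peaks reached it. An enrichment of at least 10-fold was found in 89 broad peaks (6.70%) and in 327 narrower peaks (3.22%), against 3.57% of all peaks. Width and these values come from the same pileup of fragments, so nothing further is read from these shares. The broad isolated class, 9.50% of all peaks, was densest at the top of the list. Ordered by −log10 q, it supplied 8 of the first 10 peaks, 37 of the first 100, 193 of the first 1000 and 474 of the first 3000. Ranked by ChIP fragments alone, it supplied 9 of the first 100, near its share of the list, and 162 of the first 1000. High ranks were not particular to isolated broad peaks. Broad peaks with a close neighbour, meaning another summit within 1000 bp, were 374 of 13977 peaks. They supplied 12 of the first 100 by −log10 q and 27 of the first 100 by fragments. A −log10 q of 20 or more was reached by 92 of them (24.6%).

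The share of isolated peaks that were broad followed the number of ChIP fragments. Among isolated peaks with fewer than 20 fragments, 61 of 1455 were broad (4.19%, 3.22 to 5.35%). With 30 to 34 fragments, 268 of 1633 were broad (16.4%, 14.6 to 18.3%). With 60 to 79 fragments, 49 of 132 were (37.1%, 28.9 to 46.0%). The climb did not continue in the last class. At 80 fragments or more, 17 of 77 peaks were broad (22.1%, 13.4 to 33.0%). That class differs from the others in its input: its broad peaks had a median scaled input of 41.1 fragments and its narrower peaks of 30.3. By −log10 p the share climbed to the end, with 63 of 878 isolated peaks broad below 10 (7.18%, 5.56 to 9.09%) and 27 of 47 at 40 or more (57.4%, 42.2 to 71.7%).

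**Figure D3:**
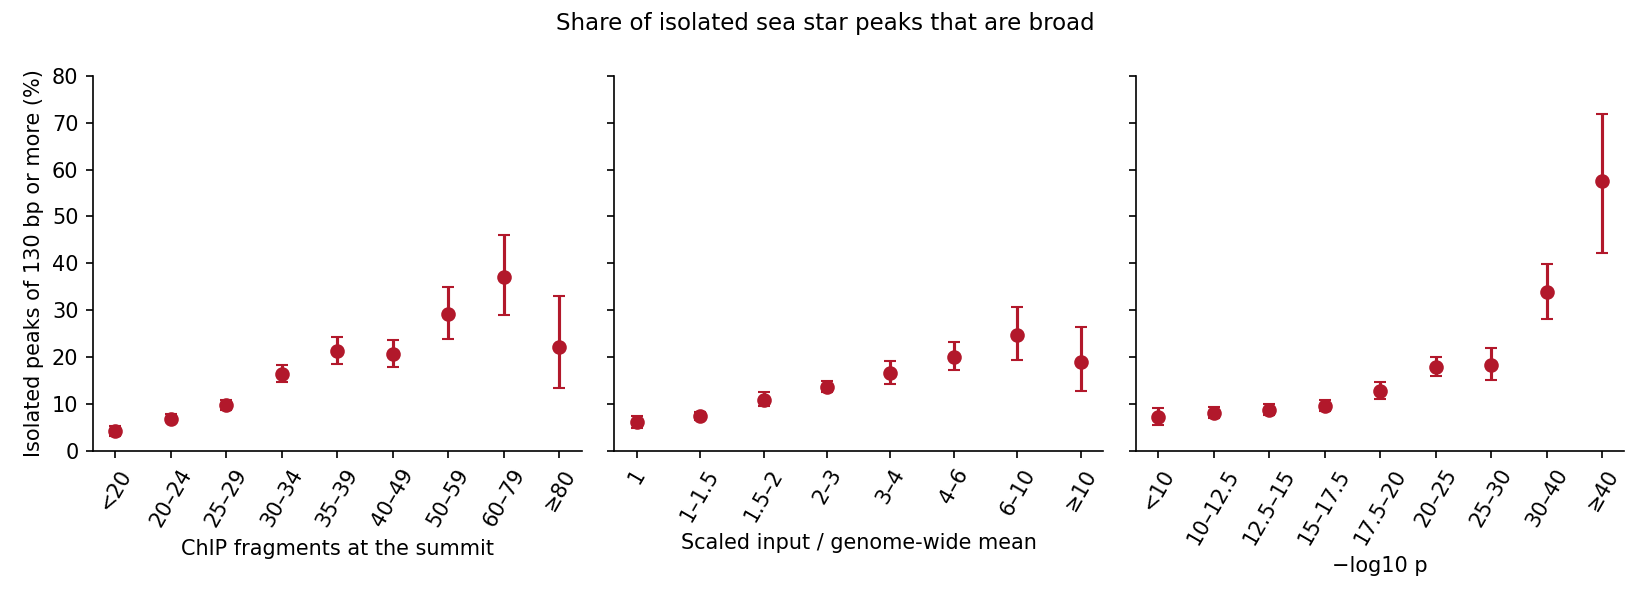
Percentage of isolated sea star peaks that are 130 bp or wider (y axis, points with exact binomial 95% intervals) by class of ChIP fragments at the summit (left), of scaled input over the genome-wide mean (middle) and of −log10 p (right). The share runs from 4.19% to 37.1% with fragments before dropping to 22.1%, from 6.10% to 24.7% with scaled input before dropping to 18.8%, and from 7.18% to 57.4% with −log10 p.

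The share of broad peaks also climbed with scaled input, from 84 of 1378 peaks at the genome-wide mean (6.10%) to 59 of 239 at 6 to 10 times the mean (24.7%), and was 18.8% above that. Among peaks with similar numbers of fragments, the share varied less with input and in no single direction. With 30 to 39 ChIP fragments, 63 of 357 peaks were broad where the scaled input was under 1.5 times the mean (17.6%, 13.8 to 22.0%). With the same fragments, 59 of 323 were broad where it was 4 times the mean or more (18.3%, 14.2 to 22.9%). With 25 to 29 fragments the share was 9.35% under 1.5 times the mean and 12.9% at 3 to 4 times. With 20 to 24 fragments it was 5.70% under 1.5 times and 8.62%, or 5 of 58 peaks, at 3 to 4 times. Within each of these fragment classes the intervals of the lowest and highest input class overlap, but with 20 to 24 fragments the share at 2 to 3 times the mean, 9.68% (7.67 to 12.02%), stood above that under 1.5 times (4.73 to 6.81%). With 40 to 59 fragments the share was 27.3% (21.5 to 33.7%) at 2 to 3 times the mean, 19.6% (14.6 to 25.3%) at 3 to 4 times and 21.6% (18.3 to 25.3%) at 4 times or more. The median width of all isolated peaks was lower over a higher input. With 30 to 39 fragments it was 109 bp under 1.5 times the mean and 95 bp at 4 times the mean or more, so peaks over a high input were typically narrower while the share of 130 bp or more hardly differed.

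At equal fragments the fold enrichment of broad and narrower peaks crossed over. With fewer than 20 fragments, broad peaks had a median fold enrichment of 5.60 (5.38 to 6.14) and narrower ones of 6.14 (5.95 to 6.14). With 20 to 24 fragments the medians were 6.12 (5.88 to 6.16) in broad peaks and 6.44 (6.37 to 6.44) in narrower ones. From 25 fragments the order of the medians was turned round. With 40 to 49 fragments broad peaks had 6.16 (5.73 to 6.61) and narrower ones 5.72 (5.51 to 5.86). With 60 to 79 fragments broad peaks had 5.85 (4.64 to 7.81) over a median scaled input of 10.8, and narrower ones had 3.60 (3.33 to 4.01) over 17.0. The intervals of the 2 medians were clear of each other only at 20 to 24 fragments, where broad peaks were the less enriched, and at 60 to 79, where they were the more enriched. At 80 or more, the medians were 2.88 in broad peaks and 3.07 in narrower ones, again with overlapping intervals.

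**Figure D4:**
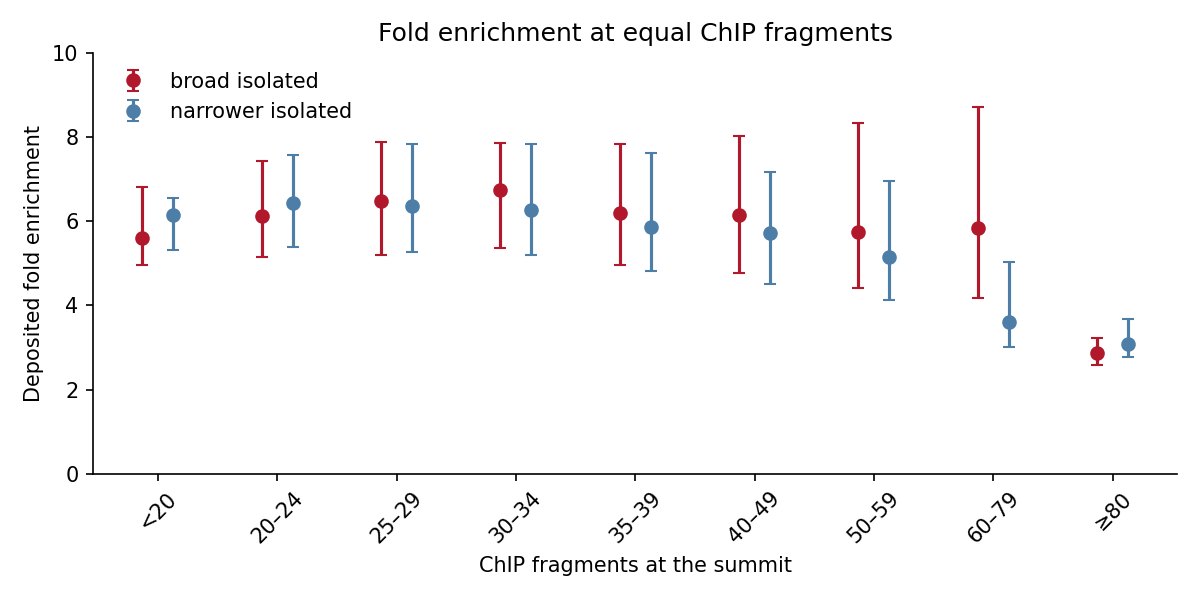
Deposited fold enrichment (y axis; median and quartiles over peaks) by class of ChIP fragments at the summit (x axis), for broad isolated peaks in red and narrower isolated peaks in blue. The red median is below the blue one at fewer than 25 fragments, above it from 25 to 79 fragments, and at 2.88 against 3.07 at 80 or more.

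At equal significance broad peaks had the lower median fold enrichment. This order of the medians held in each of 9 classes of −log10 p, and the median ChIP fragments and scaled input were higher in broad peaks in each. The fold enrichment intervals were clear of each other in the classes from 10 to 30. They overlapped below 10 and from 30 upwards. At a −log10 p of 15 to 17.5, for example, broad peaks had a median of 27 fragments, a scaled input of 3.60 and an enrichment of 6.34-fold. Narrower peaks of that class had 25 fragments, a scaled input of 2.57 and an enrichment of 6.86-fold. A p-value of a given size can come from few fragments over a low input or from more over a higher one, and the broad peaks lay on the side with more of both. At equal scaled input, where fold enrichment mainly restates the fragments, its order was the opposite. In each of 8 classes of scaled input the median was higher in broad peaks. Just at the genome-wide mean it was 8.31 (7.58 to 9.03) in broad peaks and 7.58 (7.58 to 7.94) in narrower ones. At 2 to 3 times that mean it was 6.09 (5.87 to 6.31) in broad peaks and 5.48 (5.44 to 5.54) in narrower ones, and at 10 times or more it was 2.95 (2.60 to 3.22) and 2.93 (2.80 to 3.07). The intervals were clear of each other in the 4 classes between 1 and 4 times the mean and overlapped in the others.

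The scaled input was more often set by the narrowest window around the summit in broad peaks than in narrower ones. The peak caller sets the scaled input to whichever of 4 numbers is largest: input counted in a window of 1 fragment length, of 1 kb or of 10 kb around the base, or the mean over the genome. In broad isolated peaks the window of 1 fragment length set it in 1110 of 1328 cases (83.6%, 81.5 to 85.5%), and in narrower ones in 7201 of 10158 (70.9%, 69.996 to 71.8%). The genome-wide mean set it in 84 broad peaks (6.33%) and in 1294 narrower ones (12.7%). Where the narrow window set it, broad peaks had a median of 8 input reads there (quartiles 6 and 12) and narrower peaks 7 (quartiles 5 and 10). The narrow window thus exceeded the wider ones more often under broad peaks, and there it held 1 read more at the median. Input reads in the narrow window cannot be read off where a wider one was higher.

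The shape of broad peaks changed at about 150 bp. Each summit divides its peak into 2 sides, and in broad isolated peaks the shorter side had a median of 62 bp and the longer of 89 bp. In narrower isolated peaks the sides were 39 and 56 bp. From 84 to 149 bp of width both sides grew together, and the summit stayed a median of 7.5 to 8.5 bp from the middle. In the 369 peaks of 130 to 139 bp the sides were 59 and 74 bp, and in the 244 peaks of 140 to 149 bp they were 64 and 79 bp. From there on, the shorter side stood still and the longer one took up the extra width. In the 145 peaks of 180 to 199 bp the sides were 64 and 124 bp, and in the 121 peaks of 200 to 249 bp they were 65 and 150 bp. In the 20 widest, of 250 bp or more, they were 68 and 190 bp, and the summit lay a median of 62.8 bp from the middle. The shorter side thus kept to between 63 and 68 bp from 140 bp of width upwards, while the longer one grew from 79 to 190 bp.

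**Figure D5:**
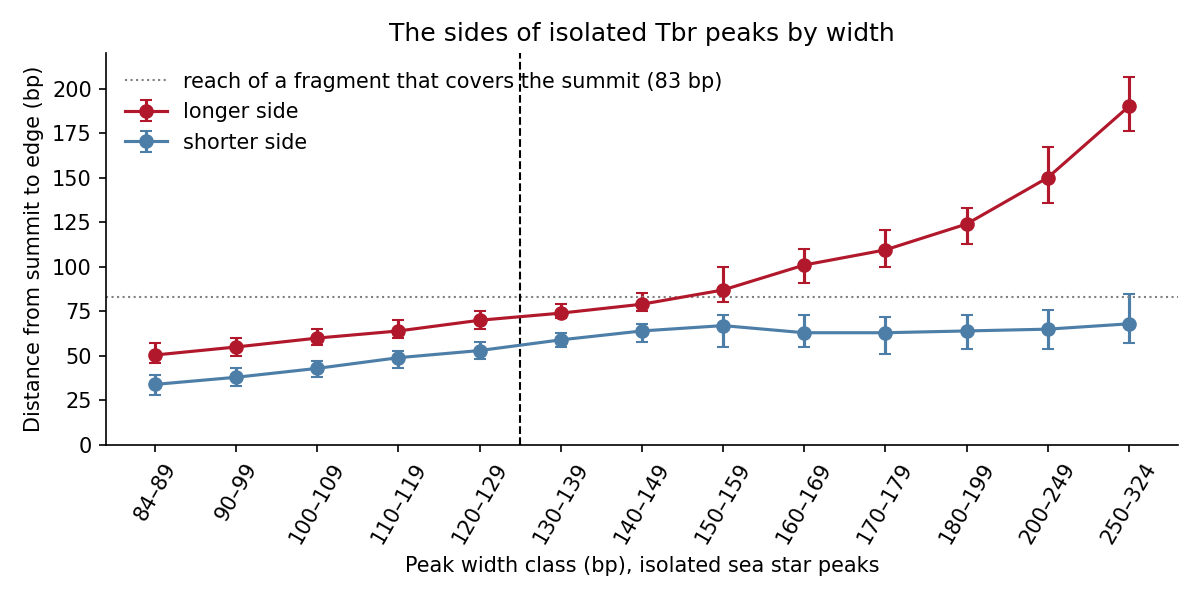
Distance in bp from the summit to the farther edge (red) and to the nearer edge (blue) of isolated sea star peaks (y axis; median and quartiles over peaks) by class of width in bp (x axis), with the 130 bp limit dashed and the 83 bp reach of a fragment dotted. Both medians climb together up to 140 to 149 bp, after which the nearer edge stays at 63 to 68 bp and the farther one climbs to 190 bp.

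The 84 bp is the fragment length taken for the caller's pileup, not a measured length of the precipitated DNA. A fragment of that length that covers the summit reaches at most 83 bp past it. In the pileup, an edge farther away therefore needs fragments that do not cover the summit. At least 1 side went past 83 bp in 719 of 1328 broad isolated peaks (54.1%, 51.4 to 56.8%), and in 47 of 10158 narrower ones (0.463%). Much of this contrast is set by the 130 bp limit itself, since a narrower peak can have such a side only with its summit near 1 edge. In broad peaks with a close neighbour the share was 198 of 374 (52.9%). Both sides went past 83 bp in only 31 broad isolated peaks (2.33%). A further measure is total width, since fragments that share 1 base span at most 167 bp. Of the broad isolated peaks, 429 (32.3%) were wider than that, which by itself puts a side past 83 bp. The 719 members with a long side had a median of 30 fragments at the summit (29 to 31) and were enriched 5.998-fold (5.75 to 6.12). The other 609, whose 2 sides both lay within a fragment of the summit, had 32 fragments (31 to 33) and were enriched 6.61-fold (6.40 to 6.85). As a group, the members with a long side were thus slightly lower in both medians, though the intervals of the fragments meet at 31. Their median scaled input was higher, 4.11 against 3.63 fragments, and they were wider, with a median of 172 bp against 138 bp. The values did not fall steadily with width. Isolated peaks of 200 to 249 bp had a median of 31 fragments and were enriched 6.58-fold.

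The long side of broad isolated peaks showed no clear preferred direction along the scaffold. It lay toward lower coordinates in 650 (48.9%, 46.2 to 51.7%) and toward higher coordinates in 665 (50.1%, 47.4 to 52.8%), and 13 had equal sides. Narrower isolated peaks leaned slightly, with 46.7% (45.7 to 47.6%) toward lower and 51.9% (51.0 to 52.9%) toward higher coordinates. The intervals of the broad set overlap these, so a lean of that size could be present there too. As a share of the width, the median distance of the summit from the middle was 8.51% in broad peaks and 8.52% in narrower ones. The broad value joins unlike parts: it was 5.68% at 130 to 139 bp and 5.25% at 140 to 149 bp, but 11.7% at 160 to 169 bp and 24.3% from 250 bp. Within 10% of the width from the middle lay 749 broad summits (56.4%) and 5815 narrower summits (57.2%). Within 20% of the width from an edge lay 39 broad summits (2.94%) and 232 narrower ones (2.28%). In bp the median distance was 12.8 in broad peaks and 8 in narrower ones, and with the width limit at 150 bp it was 24 and 8.

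Most scaffolds that held a broad isolated peak held only 1 of them. Broad isolated peaks lay on 1240 of the 8491 scaffolds that hold a peak. There was 1 member on 1161 scaffolds, 2 on 72 and 3 or more on 7. The list as a whole is sparse, with 13977 peaks on those 8491 scaffolds, so this is not read as a trait of the members. No other peak was on the scaffold for 595 of 1328 broad peaks (44.8%, 42.1 to 47.5%) and for 4877 of 10158 narrower ones (48.0%, 47.0 to 49.0%). Where there was another peak, the nearest summit lay a median of 10415 bp away (9082 to 11593) from a broad one and 9982 bp (9604 to 10495) from a narrower one. The spacing of broad and narrower isolated peaks was thus much alike in these medians, whose intervals overlap. Summits in the first 300 bases of a scaffold numbered 87 among broad peaks (6.55%, 5.28 to 8.02%) and 647 among narrower ones (6.37%, 5.90 to 6.86%). Most of these were alone on their scaffold. Without such peaks the shares were 0.682% of broad peaks and 1.14% of narrower ones, and without scaled input above 2 times the mean they were 4.20% and 5.16%.

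The 2 scaffolds with 4 members differed from each other. Scaffold2948 held 4 peaks in all, and all were broad and isolated, between 14111 and 69441, with medians of 27.5 fragments and a 6.37-fold enrichment. Scaffold158 held 36 peaks, of which 4 were members, between 34124 and 58123, with medians of 96 fragments, 17.7 times the mean input and an enrichment of 3.01-fold. Scaffold68, Scaffold132, Scaffold513, Scaffold1992 and Scaffold3613 held 3 members each. On Scaffold3613 these were the only peaks, between 5684 and 39892, with a median fold enrichment of 5.69. On Scaffold132, where 3 of 8 peaks were members, the median was 45 fragments and a fold enrichment of 8.40. Scaffolds with 10 or more peaks held 17 broad isolated peaks (1.28%) and 72 narrower isolated ones (0.709%). They also held 47 of the 374 broad peaks with another summit within 1000 bp (12.6%) and 146 of the 2117 such narrower peaks (6.90%). The isolation limit leaves those peaks out, so nothing is read from the low shares.

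The 10 members with the highest −log10 q had from 51 to 73 fragments at the summit, and most were compact. The first, on Scaffold11110 at 8895 to 9029, was nearly symmetric, with 66 bp before its summit and 68 bp after it, and had 67 fragments (exact Poisson 95% interval 51.9 to 85.1) over the genome-wide mean. The peak on Scaffold3648 at 43227 to 43358 had 66 bp and 65 bp around a summit of 64 fragments (49.3 to 81.7) over 5 input reads. On Scaffold11510 at 8842 to 8989 the sides were 67 and 80 bp, around 73 fragments over 9 input reads. These 3 peaks have both edges within the reach of fragments that cover the summit. The peaks on Scaffold9002693 at 10 to 145, on Scaffold8870 at 2871 to 3001 and on Scaffold13829 at 6053 to 6201 shared that shape, with shorter sides of 61, 56 and 71 bp. The peak on Scaffold1313 at 43583 to 43730 reached 85 bp before its summit and 62 bp after it. The remaining 3 of the 10 were lopsided. On Scaffold5733 at 24017 to 24187 the sides were 71 and 99 bp. On Scaffold7347 at 25448 to 25714 the peak ran 202 bp before the summit and 64 bp after it, and on Scaffold1486 at 3703 to 3953 it ran 58 bp before and 192 bp after.

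The 5 highest fold enrichments belonged to members of that same group. They were 24.6 on Scaffold11110, 19.9 on Scaffold9002693, 18.21 on Scaffold3648, 18.20 on Scaffold7347 and 16.0 on Scaffold1313. Their scaled input ran from 1.77 to 2.94 fragments, which is 1 to 1.66 times the genome-wide mean, below the median of 2.32 times over broad isolated peaks.

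The 10 widest members had from 25 to 81 fragments at the summit. The widest, 324 bp on Scaffold9460 at 7099 to 7422, was also the only 1 of the 10 widest with sides within 10 bp of each other, 163 and 160 bp. It had 58 fragments (44.0 to 74.98) over 22 input reads, enriched 4.79-fold. The next, 303 bp on Scaffold756 at 113873 to 114175, ran 236 bp before its summit and 66 bp after it, with 47 fragments and a 5.20-fold enrichment. The third, 301 bp on Scaffold7987 at 3693 to 3993, ran 33 bp before and 267 bp after, with 46 fragments and a fold enrichment of 3.67. All 3 had many input reads in the narrow window, with 22, 16 and 23. The peak on Scaffold4518 at 18249 to 18538 had 7 input reads there, 36 fragments and a fold enrichment of 8.05, and its sides were 74 and 215 bp. Scaffold7347, named above, was sixth in width at 267 bp and had by far the highest fold enrichment of the 10 widest, 18.2. The other five, on Scaffold7318 at 5108 to 5383, Scaffold192 at 97298 to 97563, Scaffold1082 at 50805 to 51068, Scaffold7686 at 42233 to 42495 and Scaffold4205 at 91042 to 91302, had from 25 to 81 fragments and fold enrichments from 4.204 to 6.96.

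The members with the most fragments were of another kind, with a high input and a low fold enrichment. The first, on Scaffold61324 at 21 to 240, had 142 fragments (119.6 to 167.4) over 71 input reads, a fold enrichment of 3.81. The others were on Scaffold45209 at 44 to 206 with 133 fragments, on Scaffold71563 at 34 to 210 with 130, on Scaffold36826 at 538 to 679 with 128 and on Scaffold55583 at 91 to 221 with 125. Their fold enrichments ran from 2.36 to 2.90. Each of the 5 was the only peak of its scaffold, and 4 of them began within 100 bases of the scaffold's start. These regions were isolated in that no second peak was listed on their scaffold, whose length is not given in the list. The highest scaled inputs were found in 4 of the same 5 members, and in the peak on Scaffold158 at 34124 to 34314, at 25.6 to 30.8 times the genome-wide mean.

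Members with a scaled input of 10 times the mean or more numbered 26, with a median of 84.5 fragments and a fold enrichment of 2.95. Of these, 8 had their summit in the first 300 bases of a scaffold (30.8%, 14.3 to 51.8%), against 79 of the other 1302 members (6.07%, 4.83 to 7.50%). The same held among narrower isolated peaks, with 25 of 112 (22.3%) and 622 of 10046 (6.19%). Peaks of very high input near scaffold starts were therefore found at both widths.

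At the low end, 2 members had only 14 fragments, on Scaffold11440 at 14284 to 14429 and on Scaffold35688 at 337 to 478. The 95% interval of such a count is 7.65 to 23.5. The next in order, with 15 fragments, were on Scaffold652 at 155949 to 156079, on Scaffold10792 at 8213 to 8364 and on Scaffold12886 at 7155 to 7288. All 5 stood over the genome-wide mean, with fold enrichments of 5.42 and 5.78, and at this depth their order is not resolved. The lowest scaled input was that mean, and 84 members were at it. Their order rests only on rounding of the deposited values, so the 5 named here are an arbitrary pick of the 84. They lay on Scaffold3601, Scaffold11823, Scaffold3415, Scaffold6614 and Scaffold8062 and had 16 to 21 fragments. The peak on Scaffold6614 at 5683 to 5924 combined 21 fragments with a width of 242 bp.

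The most off-centre summits for their width were near an edge by 8 to 33 bp. On Scaffold10183 at 26364 to 26495 the summit of 27 fragments lay 8 bp from the start and 123 bp from the end. Scaffold7987, the third widest, came next. On Scaffold7193 at 16553 to 16708 the sides were 18 and 137 bp, on Scaffold13048 at 9041 to 9255 they were 189 and 25 bp, and on Scaffold9081 at 5691 to 5827 they were 17 and 119 bp. These 5 had from 21 to 46 fragments and fold enrichments from 3.42 to 5.39, all below the median of 6.22 over broad isolated peaks.

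Broad peaks that did have a neighbour within 1000 bp numbered 374 of 2491 such peaks (15.0%, 13.6 to 16.5%), against 1328 of 11486 isolated peaks (11.6%, 10.98 to 12.2%). In shape the broad isolated peaks were close to them. The shorter and longer sides had medians of 62 and 89 bp in broad isolated peaks and of 62 and 87 bp in broad peaks with a close neighbour. In level they differed more. The median was 31 fragments in broad isolated peaks and 41 in broad peaks with a neighbour, the median scaled input was 4.11 and 5.65 fragments, and the median fold enrichment was 6.22 (6.12 to 6.42) and 5.48 (5.16 to 5.65).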

How the data were processed

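Tbr ChIP and input chromatin of sea star embryos were sequenced, and the authors deposited 1 peak list. Peaks came from a chain that includes, per the submitters' processing notes, Bowtie2 2.2.2, MACS2 2.1.0, CASAVA 1.8 and SAMtools 0.1.19, with settings and a genome build not given in the sources used here. In the list, the deposited fold enrichment is a ratio of ChIP pileup to background at the summit, and significance was deposited by the authors as −log10 of the p-value and of the q-value. The deposited score is the whole part of 10 times −log10 p in 100% of sea star peaks.

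Members and measures were chosen with earlier results of these data known. Starts were raised by 1 so that positions are 1-based. For each peak, pileups up to 599 were tried, with fold enrichment as the pileup plus 1 over the background plus 1 and p as the upper Poisson tail. The pileup kept came within 0.001 of the deposited −log10 p for 100% of peaks. On simulated sea star peaks, made with the same formulas and rounded like the deposited values, it was recovered in 100% of 13562. That shows only that rounding leaves the pileup recoverable, and is no check of the formulas. The fragment length was taken as the smallest width, 84 bp, and with it the background steps gave 0.514 ChIP reads per input read. With these values, the background of every isolated sea star peak matched 1 of the 4 numbers that the caller compares. The genome-wide mean is 21.1 ChIP reads and 41.0 input reads per kb, on the caller's own genome size; library totals were not used here. Intervals are at 95% and cover counting error or the spread over peaks of 1 library, and peaks are not replicates.

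Peaks named were the members with the 10 highest −log10 q, the 10 largest widths, and the 5 most extreme values of fold enrichment, fragments, scaled input and off-centre position, plus scaffolds with 3 or more members. Python 3.11.15, numpy 2.4.6, scipy 1.17.1, pandas 2.3.3 and matplotlib 3.10.9 were used. The planned description of sequence was not run, since no genome of this build was used here. Alternatives changed the width limit, the isolation, the significance, the scaffold position and the scaled input.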

Additional observations from a re-analysis of the deposited data

How the results depend on the processing

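Under 11 alternatives for the peak sets, the median ChIP fragments, the median scaled input and the distance of the summit from the middle were higher in broad than in narrower isolated peaks each time. The median fold enrichment was higher in broad peaks under 6, lower under 3 and equal under 2. Some of these gaps were very small, so the counts of higher and lower do not measure a difference. With the distance taken between edges, broad peaks had 6.220 and narrower ones 6.217. With summits more than 2000 bp apart the medians were 6.202 and 6.217. The number of broad isolated peaks became 715 at 150 bp or more, 733 without peaks alone on their scaffold and 500 without scaled input above 2 times the mean. With a limit of 120 bp or more, the median fold enrichment was 6.45 in broad and 6.16 in narrower peaks, and the summit lay 10.5 bp from the middle; with 150 bp or more it lay 24 bp from it. Restricted to a −log10 q of at least 10, the broad medians were 33 fragments and a fold enrichment of 6.85, against 28 and 7.001 in narrower peaks. Without scaled input above 2 times the mean they were 25 fragments, a scaled input of 2.57 and a fold enrichment of 7.58, against 22, 2.30 and 7.10 in narrower peaks, and 4.20% of broad and 5.16% of narrower summits lay in the first 300 bases. These shares were 0.682% and 1.14% without peaks alone on their scaffold; the share could not be taken without peaks that start in the first 300 bases. Each of these settings changes which peaks are counted. Leaving out scaffolds with 10 or more peaks, chosen after seeing the data, moved no median or share beyond its interval and left the number of broad isolated peaks at 1311. No paired analysis was possible because each species contributed 1 ChIP library, and no replicate could be left out. Depth limits single members, whose median summit rests on 31 fragments.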

Other observations

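In the sea urchin list, the same width and spacing gave 1205 broad isolated peaks of 2557 isolated ones (47.1%, exact binomial 95% interval 45.2 to 49.1%), where the sea star list had 1328 of 11486 (11.6%). The lists were cut at different limits and the callers' fragment lengths were 96 bp and 84 bp, so these shares are set side by side with no comparison. Within the sea urchin, broad isolated peaks had a median of 21 ChIP fragments over a scaled input of 4.57, and narrower isolated ones had 18 over 3.43. Their median fold enrichment was 3.95 (3.89 to 4.02) in broad peaks and 4.31 (4.26 to 4.40) in narrower ones, while in the sea star it was 6.22 in both. Species, antibody and stage differ together, and that difference was not tested.

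In sea urchin broad isolated peaks the summit lay a median of 37 bp from the middle, or 18.5% of the width, and 270 of 1205 (22.4%) had it within 20% of the width from an edge. In narrower isolated peaks of the sea urchin the median was 13 bp, or 12.4% of the width, and 126 of 1352 (9.32%) had the summit that near an edge. The sea star values were 8.51% of the width and 2.94% in broad isolated peaks and 8.52% and 2.28% in narrower ones, so the gap between the lists was not limited to broad peaks. In sea urchin broad isolated peaks the shorter side had a median of 58 bp and the longer side of 129 bp. At least 1 side went past the reach of a fragment in 832 of them (69.0%). In sea star broad isolated peaks the shorter and longer sides had medians of 62 and 89 bp. The fragment lengths, 84 bp in the sea star and 96 bp in the sea urchin, differ, so these sides are not compared.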
